A study of Mus musculus with 4 samples.

Results

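The accessibility of 5 thyroid hormone genes was measured by snATAC-seq (single-nucleus sequencing of open chromatin) in the inguinal white adipose tissue (iWAT) of 21 mice. The genes were *Dio2*, *Slc16a10*, *Thra*, *Thrb* and *Ncor1*, which were 5 of the 17196 protein-coding genes with at least 1 peak on the gene body or up to 2000 bases before its start. All mice were 8-week-old male C57BL/6J and fell into 7 groups of 3. 1 group was taken at day 0, kept at 22 °C, 3 groups were exposed to 6.5 °C (cold) for 1, 3 or 7 days, and 3 groups received CL-316,243 (CL, an agonist of the β3-adrenergic receptor, at 1 mg/kg each day at room temperature) for as long. All groups share the 3 day 0 mice as the only control, and a room-temperature control at days 1 to 7 was not analysed here.

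Thyroid hormone reaches fat mostly as thyroxine, a prohormone. Type II deiodinase, encoded by *Dio2*, removes an outer-ring iodine and so makes the active hormone triiodothyronine inside the cell, and in brown fat this enzyme is known to be induced by sympathetic signals through cAMP. *Slc16a10* encodes MCT10, a membrane carrier of thyroid hormones and aromatic amino acids. *Thra* and *Thrb* encode the nuclear receptors TRα and TRβ, which bind DNA mostly as partners of RXR, and *Ncor1* encodes a corepressor that unliganded receptors recruit. Accessibility of a gene is a measure of open chromatin, not of its transcript, enzyme activity or hormone level.

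The deposited table held 32552 nuclei in 12 labelled clusters, with 1111 to 2021 nuclei and 1340376 to 6916698 counts per mouse. Of 28031 distinct barcode sequences, 4218 occurred in 2 or more mice. White and beige adipocytes together numbered from 29 nuclei (CL day 1, mouse 1) and 68 nuclei (CL day 1, mouse 2) to 933 nuclei per mouse. Adipocyte markers were highest in the white or beige cluster for 5 of 5 genes and beige markers for 4 of 4. Markers of some other clusters were mixed. Of the macrophage markers, *Adgre1* and *Cd68* were highest in dendritic cells, and of the dendritic markers, *Itgax* and *Siglech* were highest in macrophages. The progenitor markers *Dpp4* and *Col15a1* were highest in CD8 T cells and white adipocytes, and the endothelial marker *Pecam1* in CD4 T cells. The rest of these lists were highest under their own label, the progenitor markers in APC1. The cluster labelled VSMC went against its label, because 0 of 4 smooth muscle markers and all 5 skeletal muscle markers with a peak (*Ckm*, *Acta1*, *Ttn*, *Tnnt3* and *Ryr1*) were highest there, so it is called the cluster labelled VSMC throughout. Levels are given in CPM, counts scaled to a library total of 1000000, a library being the nuclei of 1 cluster in 1 mouse. The total was the sum over all genes for a gene and over all peaks for a peak. Gene and peak CPM are therefore on different scales. Libraries under 10 nuclei were left out. In time courses of white and beige nuclei together, their sum in a mouse was 1 library and the limit applied to that sum.

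The members lay on mm10 as follows. *Dio2* (ENSMUSG00000007682.6) occupied chr12:90724552-90738438 on the minus strand with 6 peaks, and *Slc16a10* (ENSMUSG00000019838.11) occupied chr10:40033532-40142258 on the minus strand with 32 peaks. *Thra* (ENSMUSG00000058756.13) occupied chr11:98740638-98769006 on the plus strand with 10 peaks, of which 1 was also counted for *Nr1d1*. *Thrb* (ENSMUSG00000021779.17) occupied chr14:17660261-18038090 on the plus strand with 66 peaks, and *Ncor1* (ENSMUSG00000018501.17) occupied chr11:62316426-62458541 on the minus strand with 21 peaks, of which 3 were also counted for other genes. Summed over all nuclei, the genes held 1101 counts (*Dio2*), 12858 (*Slc16a10*), 6181 (*Thra*), 16522 (*Thrb*) and 7590 (*Ncor1*), so *Dio2* had the fewest counts behind its values.

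5 regions of these genes are printed because a change described later fell in them. The first is the *Dio2* promoter of RefSeq (GRCm38, 12:90738989-90739288, minus strand), whose start lies inside the *Dio2* peak that differed between beige and white adipocytes and between day 7 of cold and day 0. Its capitals mark TGACGTCA, the cAMP response element, the motif bound by CREB. The others are the central 300 bases of a *Thra* intron peak (plus strand), a *Slc16a10* intron peak (minus strand), a *Ncor1* intron peak (minus strand) and a *Thrb* intron peak (plus strand), read from the GRCm38 genome on the strand of the gene. In them capitals mark AGGTCA on either strand, the core site bound by thyroid hormone receptors and other nuclear receptors.
Dio2 promoter, chr12:90738989-90739288: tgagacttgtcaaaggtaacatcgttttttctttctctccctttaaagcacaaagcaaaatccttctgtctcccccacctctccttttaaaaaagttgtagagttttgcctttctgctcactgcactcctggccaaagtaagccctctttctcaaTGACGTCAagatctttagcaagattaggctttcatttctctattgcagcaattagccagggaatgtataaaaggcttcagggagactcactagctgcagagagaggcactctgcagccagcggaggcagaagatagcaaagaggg
Thra intron, chr11:98750596-98750895: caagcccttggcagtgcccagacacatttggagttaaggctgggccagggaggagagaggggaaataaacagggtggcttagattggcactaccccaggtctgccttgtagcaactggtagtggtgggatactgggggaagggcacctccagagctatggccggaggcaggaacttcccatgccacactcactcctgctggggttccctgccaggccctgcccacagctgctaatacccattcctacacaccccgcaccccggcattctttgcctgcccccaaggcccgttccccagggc
Slc16a10 intron, chr10:40103859-40104158: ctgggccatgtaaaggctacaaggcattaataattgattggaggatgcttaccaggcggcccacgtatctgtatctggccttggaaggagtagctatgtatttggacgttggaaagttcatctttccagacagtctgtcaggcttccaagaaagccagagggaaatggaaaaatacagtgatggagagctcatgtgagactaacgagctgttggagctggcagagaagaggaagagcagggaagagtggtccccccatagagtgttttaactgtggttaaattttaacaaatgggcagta
Ncor1 intron, chr11:62431562-62431861: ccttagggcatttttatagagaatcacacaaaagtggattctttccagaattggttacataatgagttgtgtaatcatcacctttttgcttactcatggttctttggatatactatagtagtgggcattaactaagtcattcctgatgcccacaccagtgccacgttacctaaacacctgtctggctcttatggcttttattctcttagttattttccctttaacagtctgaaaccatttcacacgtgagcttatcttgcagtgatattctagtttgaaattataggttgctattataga
Thrb intron, chr14:17747985-17748284: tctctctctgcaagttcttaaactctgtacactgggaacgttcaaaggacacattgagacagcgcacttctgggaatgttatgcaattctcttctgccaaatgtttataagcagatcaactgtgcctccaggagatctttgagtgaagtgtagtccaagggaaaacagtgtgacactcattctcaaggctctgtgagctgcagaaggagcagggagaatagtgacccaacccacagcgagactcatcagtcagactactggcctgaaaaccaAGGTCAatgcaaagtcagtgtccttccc
The cAMP response element stood 95 to 88 bases before the RefSeq start of *Dio2*. It occurred in 1.8% of 32544 distinct RefSeq promoters of 300 bases and in 0.478% of the central windows of all 189598 peaks. None of the 6 *Dio2* central windows held it, since it lay inside its peak but outside the central 300 bases. Among the 4 intron windows, the core site occurred only in that of *Thrb*, at positions 273 to 278. Across all peaks of the members, the central windows held AGGTCA in 2 of 6 for *Dio2*, 11 of 32 for *Slc16a10*, 0 of 10 for *Thra*, 16 of 66 for *Thrb* and 4 of 21 for *Ncor1*, against 21% of all peaks. The longer motif TCAAGGTCA, bound by estrogen-related receptors and itself holding the core site, occurred in 1 window (*Slc16a10*, chr10:40058418-40058951) against 0.632% of all peaks. The *Thrb* peak chr14:17966598-17967690 also held it, at chr14:17966608-17966616 and chr14:17966785-17966793, outside its central 300 bases. The direct repeat of AGGTCA with 4 bases between its copies (DR4), the arrangement preferred by TR with RXR, occurred in none of the members' central windows and in 0.0264% of all peaks. Both strands were searched, and a match describes letters only.

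*Dio2*, the activating enzyme, was most accessible in adipocytes and highest in beige adipocytes. Its level over mice was 69.1 ± 33.7 CPM in beige (SD, n = 19 mice, from 0 to 139) and 29.3 ± 13.7 CPM in white adipocytes (n = 21, from 0 to 68.5). The other 10 clusters had means from 4.53 CPM in APC2 (a cluster labelled as adipocyte precursors, where 3 of 4 smooth muscle markers were highest) to 13.2 CPM in the cluster labelled VSMC, with mice at 0 in each of them. Beige exceeded white adipocytes in 17 of 19 mice, by 37.4 ± 34.8 CPM, and white adipocytes exceeded the cluster labelled VSMC in 9 of 10 mice, by 22.0 ± 14.8 CPM. These were the 2 of 11 steps between neighbours in the order whose mean difference was larger than its SD over mice. The remaining clusters could not be ordered beyond their spread. White adipocytes exceeded CD4 T cells in 17 of 20 mice, by 17.9 ± 23.6 CPM, and the cluster labelled T cells in 16 of 20 mice, by 19.2 ± 24.3 CPM. Both differences were smaller than their SD, while those from every other non-adipocyte cluster were larger.

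*Slc16a10*, the hormone carrier, was high in the cluster labelled VSMC (449 ± 168 CPM, n = 10), white adipocytes (395 ± 40.9 CPM, n = 21) and beige adipocytes (385 ± 46.4 CPM, n = 19). These 3 did not differ beyond their spread. Beige adipocytes stood above the next cluster, the progenitors APC1 (208 ± 92.3 CPM, n = 20), in 17 of 19 mice. White adipocytes exceeded B cells (107 ± 16.9 CPM, n = 21) in 21 of 21 mice, and B cells exceeded APC2 (69.4 ± 28.9 CPM, n = 19) in 19 of 19 mice. Vascular endothelial cells were lowest at 39.2 ± 49.6 CPM (n = 15).

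The receptor genes had different orders. *Thrb* was highest in beige (574 ± 74.1 CPM, n = 19) and white adipocytes (568 ± 64.0 CPM, n = 21) and in the cluster labelled VSMC (515 ± 144 CPM, n = 10), which did not differ beyond their spread. It fell to 229 ± 76.3 CPM in macrophages (n = 21), below the cluster labelled VSMC in 10 of 10 mice, and was lowest in B cells at 38.1 ± 14.1 CPM (n = 21). White adipocytes exceeded each of the 9 clusters from macrophages down in every mouse that had both. *Thra* ranged from 213 ± 67.6 CPM in the cluster labelled VSMC (n = 10) and 201 ± 63.3 CPM in APC1 (n = 20) through 165 ± 35.8 CPM in white and 157 ± 35.1 CPM in beige adipocytes to 58.5 ± 14.3 CPM in B cells (n = 21) and 58.3 ± 46.9 CPM in dendritic cells (n = 17). None of its 11 steps between neighbours was larger than its SD, although white adipocytes exceeded B cells in 20 of 21 mice. Both receptor genes were high in adipocytes and in the cluster labelled VSMC, while APC1 was near the top of the order for *Thra* and below macrophages for *Thrb*.

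*Ncor1*, the corepressor, was the most even of the 5. Its means ran from 170 ± 50.0 CPM in dendritic cells (n = 17) and 163 ± 31.2 CPM in beige adipocytes (n = 19) to 111 ± 51.4 CPM in APC1 (n = 20), and none of its 11 steps was larger than its SD. In the plot of levels by cell type, the means of both adipocyte clusters were above those of the B and T cell clusters for all 5 genes, but for *Ncor1* white adipocytes exceeded CD8 T cells in only 8 of 20 mice. When only peaks within the promoter windows were counted, *Dio2* stayed highest in beige adipocytes and *Thrb* was no longer highest in an adipocyte cluster.

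**Figure D1:**
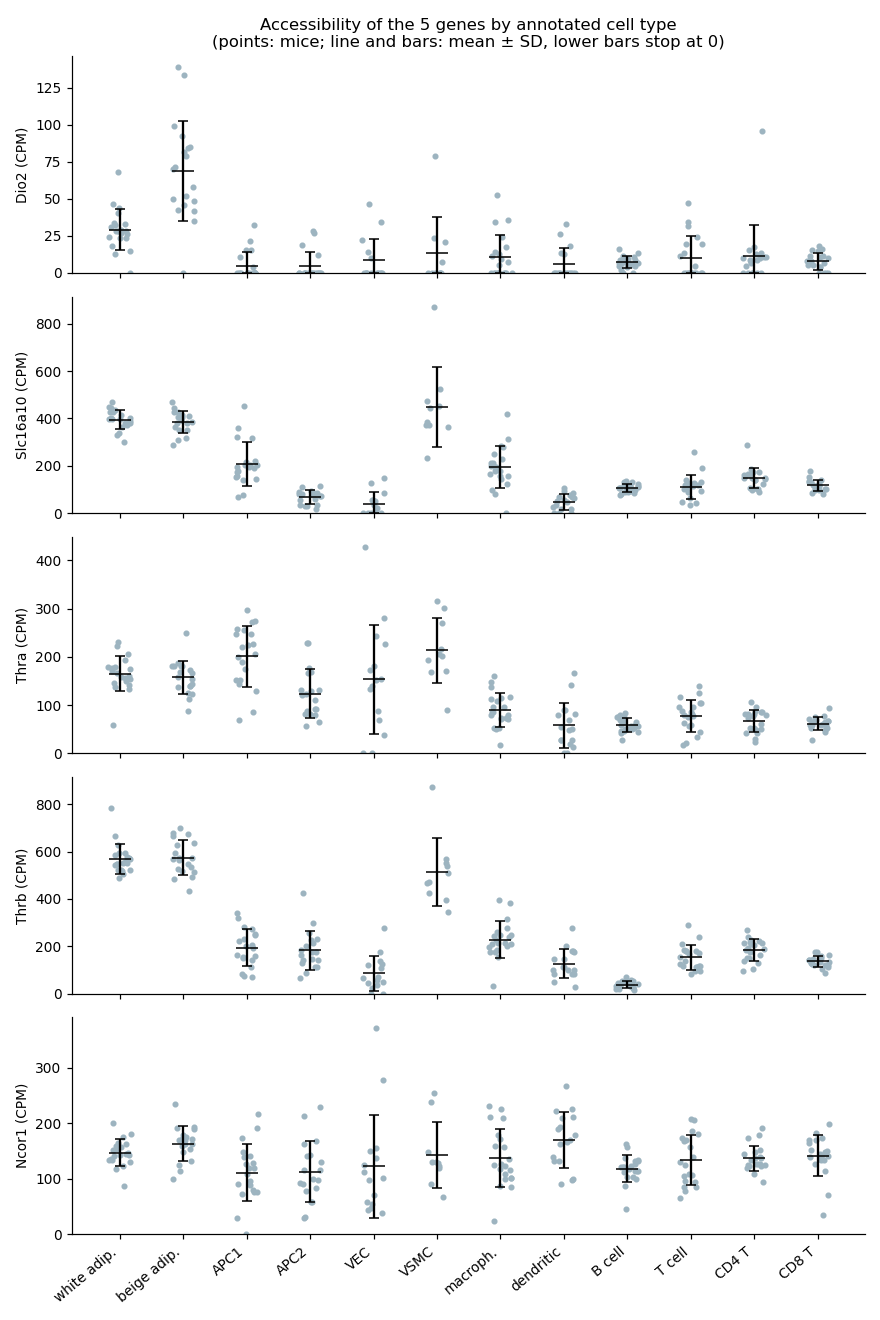
Accessibility of the 5 genes in 12 clusters, in CPM of each library (vertical axis, linear, starting at 0). Points are mice and bars are the mean ± SD over mice, cut at 0. *Dio2* averaged 69.1 CPM in the beige and 29.3 CPM in the white cluster, all others being at or below 13.2 CPM, while *Ncor1* means ran only from 111 to 170 CPM.

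Over the 12 clusters, the genes whose mean levels followed the members most closely were named by Pearson's r among genes with enough counts, as a description. They were *Urb1* (r = 0.945), *Xrcc6* (0.937) and *Aatf* (0.932) for *Dio2*, *Fam228a* (0.954), *Strn3* (0.917) and *Tpcn1* (0.916) for *Slc16a10*, *Tmem88b* (0.983), *Ank3* (0.981) and *S100a16* (0.981) for *Thra*, *Paqr6* (0.939), *Rad54l2* (0.921) and *Ctnnbl1* (0.921) for *Thrb*, and *Nabp1* (0.880), *Fbxo28* (0.877) and *Sel1l* (0.859) for *Ncor1*. The 12 points share mice, lanes and depth differences between clusters.

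Peaks of the same gene differed in the cluster where they were highest. Among peaks with at least 250 counts, 14 of 20 in *Thrb* were highest in an adipocyte cluster. Of the others, 2 were highest in the cluster labelled VSMC, 2 in APC1 or APC2 and 2 in a T cell cluster. The 2 T cell peaks, singled out after their values were seen, lay far inside the gene. The peak chr14:18001718-18002583, on a coding exon 341889 bases after the gene start, had 48.9 ± 21.1 CPM in CD4 T cells (n = 20) and 32.0 ± 12.5 CPM in CD8 T cells (n = 20), but 1.65 ± 1.52 CPM in B cells and 1.75 ± 1.39 CPM in white adipocytes (n = 21 each). The peak chr14:18021508-18022213, in an intron 361599 bases after the start, had 27.1 ± 15.1 CPM in CD4 T cells and 16.3 ± 8.04 CPM in CD8 T cells against 2.11 ± 1.81 CPM in B cells and 3.86 ± 2.79 CPM in white adipocytes. For both peaks, B cells and white adipocytes were below CD4 T cells in 19 of 20 mice. The peak over the *Thrb* start itself, chr14:17659048-17661587, had pooled levels of 99.1 CPM in the cluster labelled VSMC, 58.6 CPM in the beige and 54.2 CPM in the white cluster, 22.1 CPM in CD4 T cells and 10.6 CPM in B cells. *Slc16a10* had 8 of 13 such peaks highest in an adipocyte cluster and 4 in the cluster labelled VSMC. *Thra* had 1 of 9 highest in an adipocyte cluster, with 4 in APC1 or APC2, 3 in the cluster labelled VSMC and 1 in endothelial cells.

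**Figure D2:**
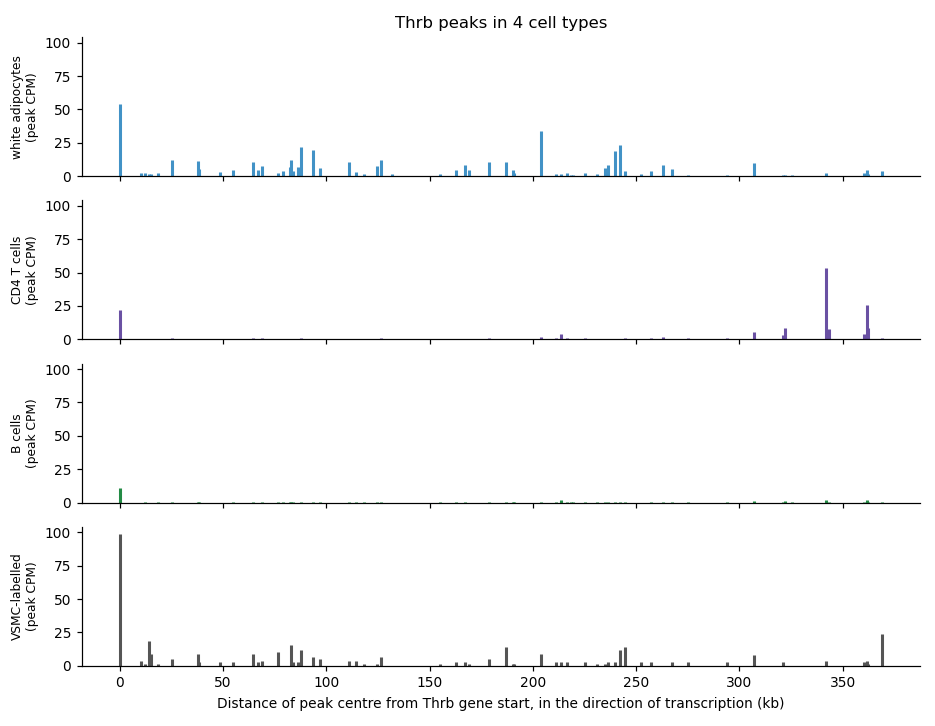
Pooled CPM (vertical axis) of the *Thrb* peaks by distance from the gene start (horizontal axis, kb) in white adipocytes, CD4 T cells, B cells and the cluster labelled VSMC. The exon peak with a mean of 48.9 CPM in CD4 T cells stands near the far end of the gene, where white adipocytes and B cells are close to 0.

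Beige were then compared with white adipocytes to ask whether the genes differ between the thermogenic and the storage cell. Of the 5 members only *Dio2* passed the test, with a log2 fold change of 1.01 ± 0.13 (SE, 2.02-fold higher in beige, edgeR adjusted p = 3.5e-11). In this comparison 28.8% of 12770 genes passed, so 1 of 5 members is near the background. The differences of the others, with 95% intervals, were 0.13 (-0.02 to 0.28) for *Ncor1*, -0.09 (-0.24 to 0.07) for *Thra*, 0.03 (-0.07 to 0.13) for *Thrb* and 0.00 (-0.11 to 0.11) for *Slc16a10* on the log2 scale. The clusters were made from the same matrix, so this test is not independent of how beige and white nuclei were told apart. The *Dio2* difference is a single value fitted over all groups, and the gap between group means varied. Beige and white means were 87.9 and 29.6 CPM at day 3 and 81.4 and 37.8 CPM at day 7 of cold. They were 55.6 and 24.9 CPM at day 3 of CL. At day 7 of CL they were 53.4 ± 4.29 and 47.7 ± 19.1 CPM, with beige below white in mouse 3 (49.9 against 68.5 CPM). Whether the gap depends on the treatment was not tested.

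At the level of peaks, 3 member peaks passed between beige and white adipocytes, where 27.2% of 24854 peaks passed and 27 member peaks could be tested. The *Dio2* peak chr12:90738608-90739278, upstream of the GENCODE gene start and holding the RefSeq start, had 23.2 ± 14.4 CPM in beige (n = 19) and 13.0 ± 5.74 CPM in white adipocytes (n = 21), a log2 difference of 0.64 ± 0.17 (edgeR adjusted p = 0.00189). It was the only 1 of the 6 *Dio2* peaks with enough counts for this test, and the other 5 had pooled levels of 1.97 to 11.0 CPM in beige and 0.534 to 4.52 CPM in white adipocytes. A *Ncor1* intron peak, chr11:62431299-62432124, was higher in beige (15.5 ± 9.53 against 9.44 ± 4.16 CPM, log2 difference 0.57 ± 0.21, edgeR adjusted p = 0.0291). A *Thrb* intron peak, chr14:17747799-17748470, was lower in beige (15.8 ± 10.6 against 23.4 ± 6.79 CPM, log2 difference -0.43 ± 0.17, edgeR adjusted p = 0.0445). None of the 4 *Thra* and 10 *Slc16a10* peaks tested passed. This fit had no term for the mouse, although the beige and white nuclei came from the same mice. With the mouse as a block, 5 of 39 member peaks passed, where 28.6% of 34063 peaks passed. The *Dio2* peak (adjusted p = 0.00904) and the *Thrb* peak (0.0195) kept their calls and the *Ncor1* peak lost it (0.0622). Those added were a second *Dio2* peak, chr12:90735481-90735802 (0.96 ± 0.31, edgeR adjusted p = 0.00995), higher in beige, and a *Thra* peak, chr11:98750453-98751037 (-0.60 ± 0.22, 0.0244), and a *Slc16a10* peak, chr10:40113604-40114060 (-0.87 ± 0.32, 0.027), lower in beige. Without the block, the *Ncor1* call was lost in 6 and the *Thrb* call in 11 of 21 fits that left out 1 mouse, with adjusted p up to 0.105 and 0.0995, while the *Dio2* call held in all 21.

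**Figure D3:**
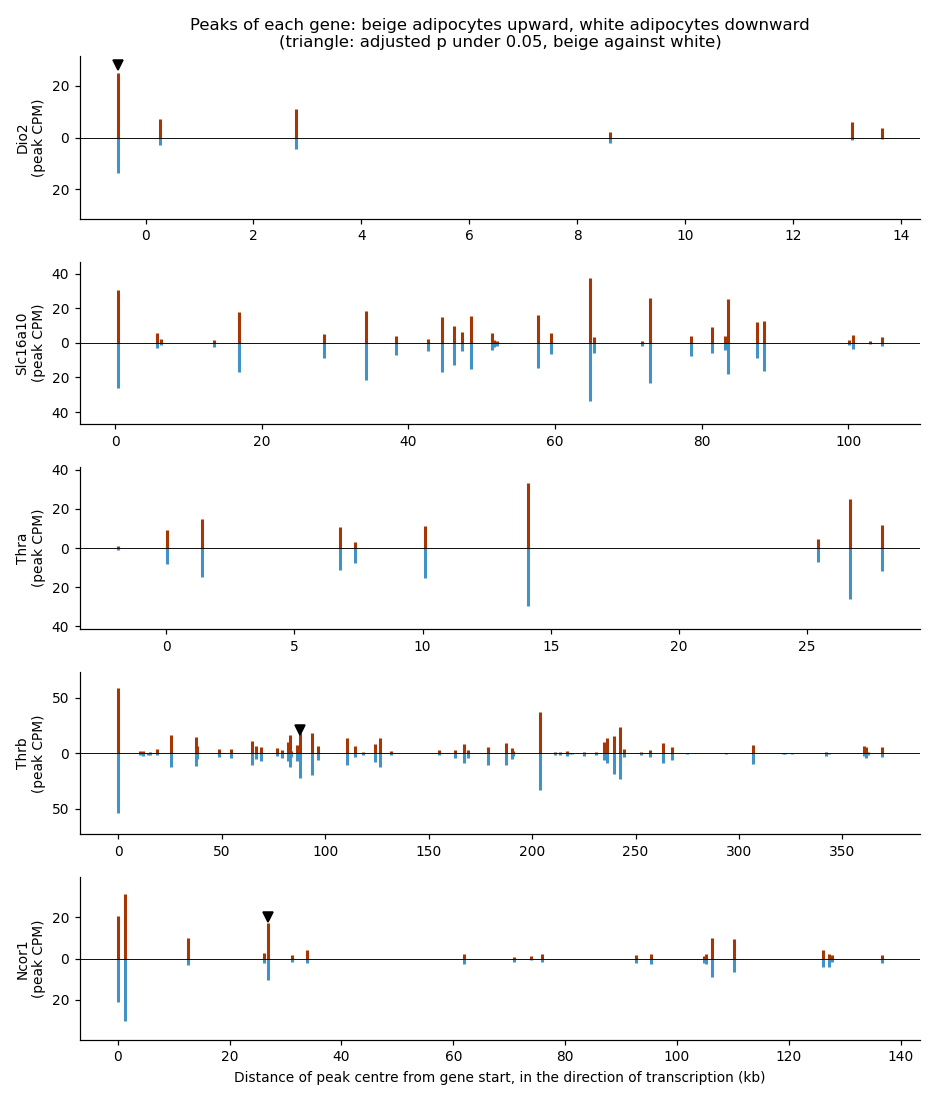
Pooled CPM of each member peak in beige (above the line) and white adipocytes (below the line) against distance from the gene start in kb. Triangles mark the 3 peaks that passed the test, of which the *Dio2* peak (25.0 against 13.7 CPM) and the *Ncor1* peak are higher in beige and the *Thrb* peak is lower.

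The time courses asked how each gene moved in adipocytes under cold and under CL. *Dio2* rose by day 7 under both treatments. Summed over white and beige nuclei, the 3 day 0 mice had 26.6, 14.0 and 19.6 CPM. The day 7 mice had 59.9, 50.9 and 44.4 CPM after cold and 45.3, 35.3 and 64.0 CPM after CL. Both day 7 groups lay wholly above day 0. The log2 fold change was 1.29 ± 0.25 after cold (2.45-fold, edgeR adjusted p = 0.000337) and 1.15 ± 0.24 after CL (2.22-fold, edgeR adjusted p = 0.00101), where 5.08% and 7.81% of 14429 genes passed. Both calls held in all 21 fits that left out 1 mouse. DESeq2 gave log2 fold changes of 1.32 ± 0.35 and 1.19 ± 0.34 and left both adjusted p-values undefined. The counts of all genes passed at day 7 moved more, from 733 to 373 without day 7 cold mouse 1, and from 1127 to 250 without day 7 CL mouse 1. All 6 treated groups were compared with the same 3 day 0 mice, so their values are not independent of each other.

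At earlier times *Dio2* did not pass in the fit of all mice. Day 3 of cold was near the threshold. There *Dio2* passed in 3 of 21 fits that left out 1 mouse (edgeR adjusted p from 0.0433 to 0.314 over the 21). It also passed in a fit of day 0 and day 3 of cold alone (edgeR adjusted p = 0.0486). Cold gave 32.3, 42.1 and 39.0 CPM at day 1 and 38.8, 35.0 and 38.0 CPM at day 3, all above the day 0 mice, with log2 differences of 0.80 (edgeR adjusted p = 0.259, where 0.34% of genes passed) and 0.87 (edgeR adjusted p = 0.053, where 1.68% passed). CL gave 20.5, 16.9 and 40.7 CPM at day 1, which overlapped day 0, and 32.8, 26.1 and 28.0 CPM at day 3, whose lowest mouse was below the highest day 0 mouse, with log2 differences of 0.84 (edgeR adjusted p = 0.124, where 2.61% passed) and 0.42 (edgeR adjusted p = 0.42, where 4.77% passed). The CL day 1 difference rested on mouse 3, which held 654 of that group's adipocyte nuclei, and was -0.27 without it. The mean over the 6 treated groups was 0.90 ± 0.23 above day 0 (edgeR adjusted p = 0.0118, with 4.17% of genes passing), and it lost its call without day 0 mouse 2 (p = 0.0704), day 0 mouse 3 (p = 0.207) or CL day 1 mouse 3 (p = 0.138).

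The share of beige nuclei among adipocytes was also higher at day 7 than at day 0. It was 7.69% to 12.2% at day 0, 26.1% to 32.4% at day 7 of cold and 14.5% to 23.5% at day 7 of CL. At day 1 (7.73% to 14.1%) and day 3 of cold (8.61% to 14.8%) the share overlapped day 0. In those mice *Dio2* was above day 0 without passing the test, and the share of all genes that do so is not given here. The shares at days 1 and 3 of CL overlapped day 0 too. The part of the share in the *Dio2* values of white and beige nuclei together was not tested. Within white adipocytes alone, *Dio2* had 23.9, 14.9 and 18.5 CPM at day 0, 46.4, 33.9 and 33.2 CPM at day 7 of cold and 43.7, 31.0 and 68.5 CPM at day 7 of CL, again without overlap. The log2 difference in white adipocytes was 0.95 after cold (edgeR adjusted p = 0.0946) and 1.20 after CL (edgeR adjusted p = 0.00256), so the cold call was lost in that fit and the CL call was kept.

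In beige adipocytes alone the day 0 mice were thin, with 12 to 24 nuclei. They had 42.7, 0 and 35.2 CPM (3, 0 and 2 counts). Cold gave 84.6, 134 and 139 CPM at day 1 (8, 7 and 7 counts). It gave 99.5, 79.1 and 85.1 CPM at day 3 and 82.0, 92.3 and 69.9 CPM at day 7. CL gave 42.2 CPM at day 1 in the single mouse with enough beige nuclei, 71.8, 48.7 and 46.1 CPM at day 3 and 52.1, 58.2 and 49.9 CPM at day 7. All 9 cold mice were above all 3 day 0 mice, and cold and CL mice did not overlap at day 3 or day 7. The share of all genes with such a separation is not given here. No contrast with day 0 passed (log2 differences 1.70 at day 1 of cold, edgeR adjusted p = 0.399, and 1.24 at day 7 of cold, edgeR adjusted p = 0.373), and neither did CL against cold at day 3 (-0.84, p = 0.206) or day 7 (-0.57, p = 0.488). At day 1 CL was 1 mouse, assumed to vary like the mice of the other groups, and its difference from cold was -1.34 (p = 0.276). In white and beige nuclei together, CL and cold did not differ in *Dio2* at day 7 beyond their spread (-0.14, 95% interval -0.45 to 0.17).

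**Figure D4:**
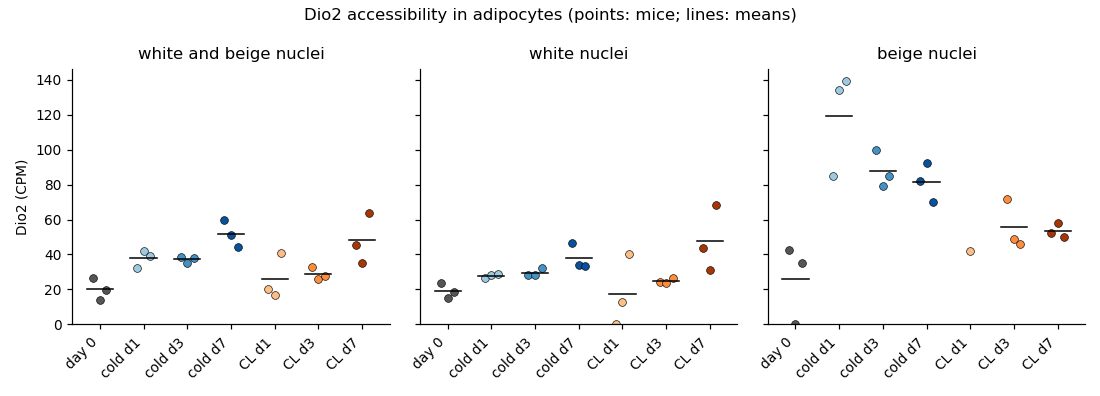
*Dio2* accessibility in CPM (vertical axis) by group in white and beige adipocytes together, in white and in beige adipocytes. Points are mice and lines are group means. At day 7 all 6 treated mice (35.3 to 64.0 CPM in white and beige together) are above the 3 day 0 mice (14.0 to 26.6 CPM).

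The carrier, the receptors and the corepressor did not pass in any of the 6 contrasts with day 0, and none of the 5 members passed in CL against cold at day 1, 3 or 7, where 0.922%, 1.46% and 0.111% of genes passed. *Slc16a10* had 382 to 460 CPM at day 0 and group means of 357 to 410 CPM in treated mice. *Thrb* had 556 to 576 CPM at day 0 and treated group means of 518 to 594 CPM. *Ncor1* had 157 to 172 CPM at day 0 and treated group means of 136 to 168 CPM. Each treated group overlapped day 0 for *Slc16a10*. The day 1 cold mice (506 to 529 CPM) lay below day 0 for *Thrb*. For *Ncor1* the CL mice of day 3 (132 to 140 CPM) and day 7 (148 to 151 CPM) lay below day 0. None of these was past the test. How many of all genes separate in this way is not given here, so these gaps are not read as a result. *Thra* had 140 to 215 CPM at day 0, and its largest difference was at day 1 of CL (mean 120 CPM, log2 difference -0.50 ± 0.16, edgeR adjusted p = 0.0622), where mice with 29 and 68 adipocyte nuclei made up 2 of 3 libraries. Averaged over treatments the log2 differences, with 95% intervals, were -0.25 (-0.45 to -0.04) for *Thra*, -0.11 (-0.33 to 0.11) for *Ncor1*, -0.06 (-0.23 to 0.10) for *Slc16a10* and 0.00 (-0.15 to 0.15) for *Thrb*. These intervals are not adjusted for the number of genes, and none of these averages passed. For the treated mean of *Thra* 0 of 21 fits that left out 1 mouse passed, with edgeR adjusted p from 0.0989 to 0.563. Its day 1 CL difference passed in 2 of 21 such fits, with edgeR adjusted p from 0.0263 to 0.663.

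**Figure D5:**
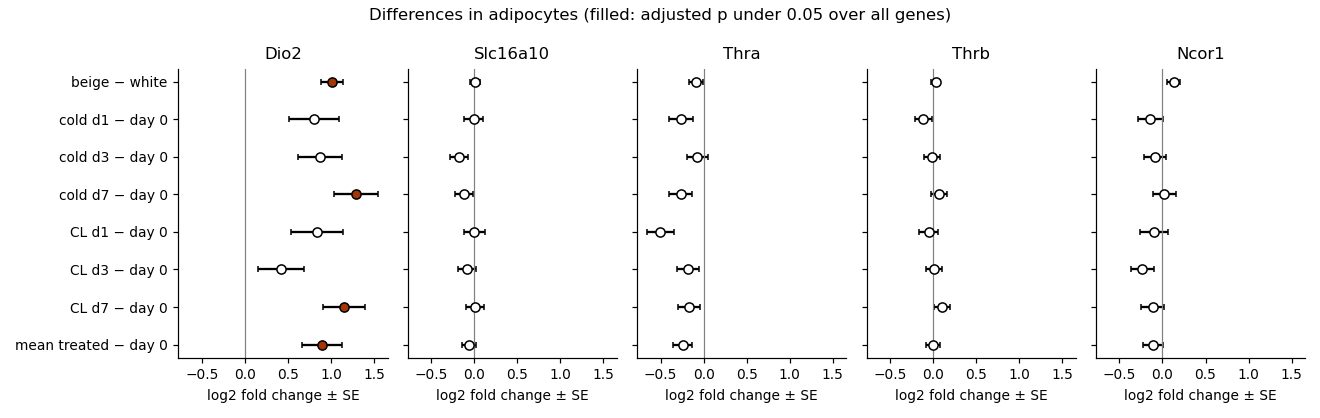
Log2 fold changes ± SE (horizontal axis) of each gene for beige against white adipocytes, each treated group against day 0, and the mean of the treated groups against day 0 in adipocytes. Filled points passed an adjusted p of 0.05. Filled points occur for *Dio2* alone, at 1.01 for beige against white, 1.29 for day 7 of cold, 1.15 for day 7 of CL and 0.90 for the treated mean.

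Peak by peak, 8 member results passed among the 10 contrasts in adipocytes, in 4 peaks. Each contrast tested 2 peaks of *Dio2*, 16 of *Slc16a10*, 9 of *Thra*, 21 of *Thrb* and 5 of *Ncor1*. Peaks of all genes passed at the shares given next, so the 8 are not read as a result about the members as a set. Of 47835 peaks tested, 0.213%, 1.28% and 3.13% passed at days 1, 3 and 7 of cold, 2.06%, 3.46% and 4.19% at days 1, 3 and 7 of CL, 2.63% for the treated mean, and 0.458%, 1.79% and 0.023% for CL against cold. The *Dio2* peak at the RefSeq start had 15.0, 5.58 and 7.31 CPM at day 0 and 28.6, 15.3 and 17.5 CPM at day 7 of cold, just without overlap. It rose by 1.15 ± 0.35 on the log2 scale (edgeR adjusted p = 0.0411). The *Thra* intron peak chr11:98750453-98751037, 10107 bases after the gene start, had 26.6, 16.7 and 26.5 CPM at day 0, 9.25, 14.1 and 13.7 CPM at day 7 of cold and 10.4, 11.5 and 15.4 CPM at day 3 of CL. Both treated groups lay below day 0, with log2 differences of -0.99 ± 0.30 (edgeR adjusted p = 0.0414) and -0.91 ± 0.27 (edgeR adjusted p = 0.0342), and -0.83 ± 0.24 over all treated groups (edgeR adjusted p = 0.0315).

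The *Ncor1* peak chr11:62456499-62457901 covered annotated transcript starts of *Ncor1* and was also counted for *Pigl*, so the genes cannot be told apart there. It had 44.9, 58.6 and 41.1 CPM at day 0, 38.3, 23.6 and 28.5 CPM at day 3 of CL and 27.4, 31.5 and 28.4 CPM at day 7 of CL. Both of these CL groups lay below the day 0 mice, with log2 differences of -0.72 ± 0.20 (edgeR adjusted p = 0.0147) and -0.62 ± 0.20 (edgeR adjusted p = 0.0419), and -0.56 ± 0.17 over all treated groups (edgeR adjusted p = 0.0449). Of the other treated groups, day 1 of CL (27.1 to 32.1 CPM) and day 3 of cold (22.9 to 36.7 CPM) were also below day 0, without passing the test. Day 1 (16.3 to 42.0 CPM) and day 7 of cold (26.1 to 48.3 CPM) overlapped it. How many of all peaks separate in this way is not given here. This peak was stronger in lymphocytes (pooled 62.1 to 74.5 CPM) than in white adipocytes (30.6 CPM). The summed B cell markers in adipocyte libraries were 112 to 151 CPM at day 0, 98.4 to 117 CPM at day 3 of CL and 121 to 138 CPM at day 7 of CL. The summed T cell markers there were 22.0 to 51.1, 24.1 to 43.7 and 38.1 to 44.7 CPM in the same groups. The part of either in the result was not tested.

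The *Slc16a10* intron peak chr10:40103853-40104163 was the 1 member result in CL against cold at the same day. It had 8.28, 11.3 and 14.2 CPM at day 7 of CL (32, 14 and 12 counts), 1.68, 1.18 and 1.87 CPM at day 7 of cold (2, 1 and 3 counts) and 1.66, 8.37 and 10.0 CPM at day 0. CL exceeded cold by 2.58 ± 0.53 on the log2 scale (edgeR adjusted p = 0.0146), without overlap, and the day 0 mice spanned both. These peak results were fragile. With DESeq2 none of the 8 passed, and leaving out single mice lost each of them at least once.

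Outside adipocytes, each treated group was compared with day 0 for the members in 7 cell types with enough counts. Of 156 tests, 1 passed by edgeR (against 0.218% of 270348 tests of all genes in 8 cell types), and DESeq2 called 0. An unadjusted edgeR p under 0.05 occurred in 18. The share of all genes with such a p is not given here and the tests share the day 0 mice, so the 18 are not read as a result. The test that passed was *Thrb* in B cells at day 1 of CL, with 69.0, 51.9 and 45.7 CPM (32, 28 and 2 counts) against 25.8, 40.0 and 31.6 CPM at day 0. The treated mice lay above the day 0 mice, by 0.93 ± 0.28 on the log2 scale (edgeR adjusted p = 0.0417, where 2.68% of 11502 genes passed). Summed adipocyte markers in the same libraries were 62.5 to 68.6 CPM at day 1 of CL and 40.2 to 66.5 CPM at day 0, and summed T cell markers were 68.6 to 90.6 and 63.2 to 77.3 CPM. Of the 5 adipocyte markers, *Pparg* had 8.63, 9.28 and 22.9 CPM at day 1 of CL against 2.06, 4.71 and 3.27 CPM at day 0, without overlap. *Adipoq* was 39.0 to 45.7 against 34.0 to 56.7 CPM, and *Plin1*, *Cidec* and *Lep* were at 0 in some of the CL libraries and overlapped day 0. Median depth was 601 to 660 counts per nucleus against 785 to 1208. The part of these in the result was not tested. The call was lost without day 0 mouse 1 (adjusted p = 0.199), day 0 mouse 3 (0.0844), CL day 1 mouse 1 (0.417) or CL day 1 mouse 2 (0.098).

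Around the members, 39 further genes of thyroid hormone transport, activation and response were followed. Between beige and white adipocytes, 35 could be tested and 8 were higher and 5 lower in beige, against the 28.8% of all genes that passed, with a median log2 difference of 0.08 beside 0.01 over all genes. Among the transporters, *Slc3a2* (0.30 ± 0.08) and *Slc7a8* (0.26 ± 0.10), which encode a heavy and a light chain of amino acid transporters, were higher in beige. Of 7 hormone-responsive genes, *Ucp1*, the uncoupling protein, was higher by 2.87 ± 0.21 and *Gpd2*, mitochondrial glycerol phosphate dehydrogenase, by 0.69 ± 0.08, while *Hr* (hairless, a corepressor) was lower at -0.51 ± 0.10 and *Me1*, malic enzyme, at -0.26 ± 0.07. None of the 9 genes of deiodinase synthesis and turnover passed. Among genes of the corepressor complex, *Tbl1xr1* (0.48 ± 0.09) was higher and *Tbl1x* lower (-0.26 ± 0.07), and of 3 receptor partners *Rxra* was lower (-0.29 ± 0.06). Among 7 coactivators *Ppargc1a* was higher (0.63 ± 0.09) and *Ncoa2* lower (-0.19 ± 0.07). *Dio1*, *Dio3*, *Slco1c1* and *Crym* had too few counts to be tested.

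Over the treated groups against day 0, 36 of these genes were tested, and 4 were higher and 1 lower for the mean over treatments, where 4.17% of all genes passed. *Me1* had 195 to 207 CPM at day 0 and 297 to 467 CPM at day 7 of cold, a log2 rise of 0.84 ± 0.14 (edgeR adjusted p = 2.3e-05). *Gpd2* had 80.8 to 141 CPM at day 0 and 207 to 243 CPM at day 7 of cold, a rise of 0.89 ± 0.15 (edgeR adjusted p = 4.1e-05). Neither overlapped day 0. *Usp20*, a deubiquitinase that is known to stabilise the *Dio2* protein, had 21.1 to 32.7 CPM at day 0 and 54.3 to 81.9 CPM at day 1 of CL, a rise of 1.08 ± 0.26 (edgeR adjusted p = 0.00677), and it was higher than day 0 at day 3 and day 7 of CL (1.01 and 0.78) and day 7 of cold (0.81) too. Day 1 of CL was thin, with 29 adipocyte nuclei in mouse 1 and 68 in mouse 2. *Hr* had 116 to 132 CPM at day 0 and 68.6 to 81.9 CPM at day 7 of CL, where it fell by 0.68 ± 0.14 (edgeR adjusted p = 0.000833). By group, the genes that rose and fell numbered 1 and 0 at day 1, 1 and 1 at day 3 and 6 and 1 at day 7 of cold, and 2 and 0, 4 and 0, and 6 and 1 for CL. Of all genes, 0.34%, 1.68% and 5.08% passed on those days of cold and 2.61%, 4.77% and 7.81% on those of CL. In CL against cold, *Me1* alone passed, lower after CL at day 7 (-0.50 ± 0.12, edgeR adjusted p = 0.0462).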

How the data were processed

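snATAC-seq of iWAT from 21 mice was analysed. The authors aligned reads to mm10 with Bowtie2, called peaks with MACS2 and built and clustered the nuclei with Signac, and they used SAMtools, all per the labels and their methods. The deposited matrix holds binary counts of 189598 peaks in 32552 nuclei (65588856 entries of 1, 145 of 0 and 0 above 1), after the authors' filters on reads per nucleus, reads in peaks and doublet score. The 4 deposited samples are lanes with no group of their own, so mouse, group and cluster came from the deposited nuclei table, and 0 columns were left unused.

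Each peak was assigned to every coding gene whose body or 2000 bases upstream it met (GENCODE mouse release M21, mm10). Entries were summed per gene, mouse and cluster, leaving out libraries under 10 nuclei. For white and beige nuclei together this limit applied to their sum in a mouse. Beige libraries of 6 and 5 nuclei (CL day 1, mice 1 and 2) were therefore kept there. Pooled levels used all libraries. Genes and peaks were filtered on low counts with edgeR 4.0.16 (R 4.3.3, limma 3.58.1) and tested over the whole table with its quasi-likelihood test, TMM scaling and Benjamini-Hochberg adjustment, a call being an adjusted p under 0.05. Beige and white libraries of 21 mice were compared with a term for the group and none for the mouse, and each treated group with day 0 in the sum of white and beige nuclei, all 7 groups sharing the spread. In contrasts between groups a p-value measures the spread between mice. In the beige against white fit, the 21 white and 19 beige libraries entered as separate units. Its p-values therefore mix the spread between and within mice. The SE of an edgeR log2 fold change was worked back from that change and the F value of its test. The SE of DESeq2 came from its own fit, so the SEs of these tools are not the same statistic. The block on the mouse, or on the replicate number for time courses, DESeq2 1.42.0, no filter, nuclei of at least 2000 counts (9237 nuclei), peaks near the gene start, white or beige nuclei alone, libraries of at least 30 nuclei and leaving out each mouse were alternatives, and leave-one-out fits in B cells and pooled levels were added after seeing the data. A fit of day 0 with 1 treated group alone was another alternative. Same-numbered mice of different groups did not deviate together (median r = 0.0017, from -0.123 to 0.117, against 0.0003 for other numbers), so the numbers were not taken to pair mice. Whether a number marks one of the study's batches is not given in the sources used here.

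On simulated data, edgeR recovered 83.6% of 1.5-fold and 100.0% of 2-fold changes between beige and white adipocytes (12770 genes) and 25.4% and 77.6% between day 7 of cold and day 0 (14430 genes). The simulated libraries were independent draws that differed only by the planted changes, so no mouse was shared by beige and white. The changed genes were picked over all levels. The recovery therefore does not carry over to genes with few counts, such as *Dio2*, or to single peaks. The named genes are the 5 members, every member peak that passed, the listed pathway genes and the 3 nearest patterns per member. Some pathway genes are not reported here by name. The members and lists were chosen with earlier results of these data known. Sequences came from RefSeq promoters (found for 4 of 5 members) and the GRCm38 genome, and motif letters were searched on both strands in windows of 300 bases. Tables were made with Python 3.11.15, numpy 2.4.6, pandas 2.3.3, scipy 1.17.1 and matplotlib 3.10.9.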

Additional observations from a re-analysis of the deposited data

Results flagged for a closer look

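The *Slc16a10* intron peak chr10:40103853-40104163 differed between CL and cold on the same day, the contrast being the test of that difference. At day 7 it was higher after CL than after cold by 2.58 ± 0.53 on the log2 scale (edgeR adjusted p = 0.0146), with 8.28, 11.3 and 14.2 CPM in the 3 CL mice and 1.68, 1.18 and 1.87 CPM in the 3 cold mice. Against day 0 (1.66, 8.37 and 10.0 CPM) neither treatment passed, with log2 differences of -2.07 after cold (edgeR adjusted p = 0.0654) and 0.51 after CL (edgeR adjusted p = 0.575). The difference lost its call without day 7 CL mouse 3 (2.44, adjusted p = 0.0569), day 7 cold mouse 1 (2.59, 0.13), mouse 2 (2.45, 0.0758) or mouse 3 (2.72, 0.114), and without day 7 CL mouse 2 the peak had too few counts to be tested. DESeq2 gave 2.75 with an adjusted p of 1.00.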

How the results depend on the processing

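The counts of members that passed moved as follows. The 3 calls of the members against day 0 became 0 with DESeq2, which left 7 of 35 adjusted p-values undefined, all 7 those of *Dio2*, so its calls were not assessed there (treated mean 0.90 ± 0.30), 0 in beige and 1 in white adipocytes alone, and ran from 2 to 4 without single mice. The 3 member peaks between beige and white became 5 with the replicate block, which here pairs the beige and white nuclei of a mouse. They became 1 in nuclei of at least 2000 counts and 31 without a filter on low counts, and ran from 1 to 6 without single mice. Without that filter 5212 of 189546 peaks passed as higher and 39019 as lower in beige, and the median of all peaks moved to -0.50. The 8 member peak calls of the time courses became 1 in nuclei of at least 2000 counts, 0 with DESeq2, 1 without a filter and 4 in white adipocytes alone, and ran from 1 to 9 without single mice. The 1 call in other cell types became 0 with DESeq2. The *Thrb* difference in B cells ran from 0.71 to 1.08. The 13 pathway genes between beige and white became 3 with peaks near the gene start only (10 to 16 without single mice), and the 5 over all treated groups became 1 with those peaks and 3 in white adipocytes (1 to 5 without single mice). The 2 members highest in an adipocyte cluster became 1 with peaks near the gene start. The replicate block changed no call of a member gene in adipocytes.

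Directions turned only for differences that passed no test. Between beige and white, *Slc16a10* was -0.025 without a filter (-0.020 to 0.018 without single mice), and with peaks near the gene start *Thra* was 0.011 and *Ncor1* -0.092. Over treated groups in beige adipocytes alone, *Slc16a10* was 0.040, *Thra* 0.68, *Thrb* 0.11 and *Ncor1* 0.095. *Thra* was 0.19 with peaks near the gene start. *Thrb* was 0.039 in nuclei of at least 2000 counts, 0.000084 with DESeq2, 0.0028 in white adipocytes and -0.017 to 0.012 without single mice. *Dio2* in CL against cold was -1.34 at day 1 in beige and 0.25 at day 7 in white adipocytes, its day 1 value ran from -1.07 to 0.13 and its day 1 CL difference from day 0 from -0.27 to 1.01 without single mice. The cause of these moves was not tested. Calls over all genes at day 7 fell from 733 to 294 (cold) and from 1127 to 268 (CL) with DESeq2, and to 97 and 128 with peaks near the gene start. They fell to 423 (cold) and 580 (CL) without day 0 mouse 3, and for CL to 637 and 686 without day 0 mouse 1 and mouse 2. The 601 of the treated mean became 320, 266 and 210 without day 0 mouse 1, 2 and 3. Few counts limit *Dio2* (1101 in all nuclei) and the CL day 1 adipocytes.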
